A study of Gallus gallus with 25 samples.

Results

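The contact domains of chicken chromosomes 11 to 15, the larger microchromosomes, were taken from 4 automatic domain lists built on single-nucleus Hi-C maps of growing oocytes. Every domain that a list placed on any of these 5 chromosomes was a member, which gave 497 of the 5602 domains in the 4 lists. LBC type 1 held 148 of them, LBC type 2 held 133, post-LBC type 1 held 101 and post-LBC type 2 held 115. The whole lists held 1546, 1582, 1132 and 1342 domains in the same order, on 28 chromosomes each.

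All nuclei came from oocytes dissected from the ovary of healthy Gallus gallus of WT genotype, and the labels list no treatment. Oocytes of 1 to 2 mm in diameter formed the lampbrush chromosome (LBC) stage, which the labels spell "lumpbrush chromosome", and those of 4 to 7 mm the post-lampbrush (post-LBC) stage. Within each stage the submitters assigned nuclei to type 1 or type 2 after quality control, and the study's methods describe the types by the share of contacts that join different chromosomes. The paper calls the origin of the types unclear. For LBC type 2 it weighs minor somatic contamination against an earlier, pre-lampbrush stage, which it finds more plausible. It reports that the domain boundaries of LBC type 2 cluster much like those of chicken fibroblasts, although the contact maps look different. It proposes that post-LBC type 2 is later than post-LBC type 1. Its main domain analyses used type 1 only, so the type 2 maps may not compare the same stages as those of type 1. The maps pool 14 nuclei for LBC type 1, 6 for LBC type 2 and 4 for post-LBC type 1, and post-LBC type 2 is a map of 1 nucleus. Each group is therefore 1 list with no replicate. No test between groups was possible, and all differences given here compare maps, not conditions. The lists hold positions in base pairs and no contact counts, so the depth behind a boundary is unknown. The number of nuclei differs between the maps, and its part in any difference was not tested.

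In the diplotene oocytes of birds the paired meiotic chromosomes take the lampbrush form, in which an axis of compact granules called chromomeres carries lateral loops that are transcribed. The loops are later withdrawn and the chromosomes condense in the post-lampbrush stage. In Hi-C, a contact domain is a stretch of chromosome whose loci touch each other more often than they touch loci outside it, and a boundary is the place where such a stretch ends. Bird karyotypes combine a few large macrochromosomes with many small microchromosomes, which are known for a high density of genes and of recombination.

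By median, the domains were longer in post-LBC type 1 than in LBC type 1 on each of the 5 chromosomes. The medians of single chromosomes ran from 480 to 640 kb in LBC type 1. With the 5 chromosomes together, the median length was 560 kb in LBC type 1 (quartiles 444 and 704, n = 148), 624 kb in LBC type 2 (512 and 736, n = 133), 800 kb in post-LBC type 1 (560 and 1056, n = 101) and 704 kb in post-LBC type 2 (464 and 896, n = 115). The order of the 4 medians was LBC type 1, LBC type 2, post-LBC type 2, post-LBC type 1, and the middle ranges of the lengths overlapped in every pair of maps. Over all chromosomes the medians were 592, 608, 864 and 688 kb in the order LBC type 1, LBC type 2, post-LBC type 1 and post-LBC type 2. On chromosomes 6 to 10 they were 512, 576, 856 and 704 kb, and on the smaller microchromosomes 536, 624, 720 and 768 kb. Chromosomes 11 to 15 thus stood between their neighbours in chromosome size for post-LBC type 1 and above both for LBC type 1.

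**Figure D1:**
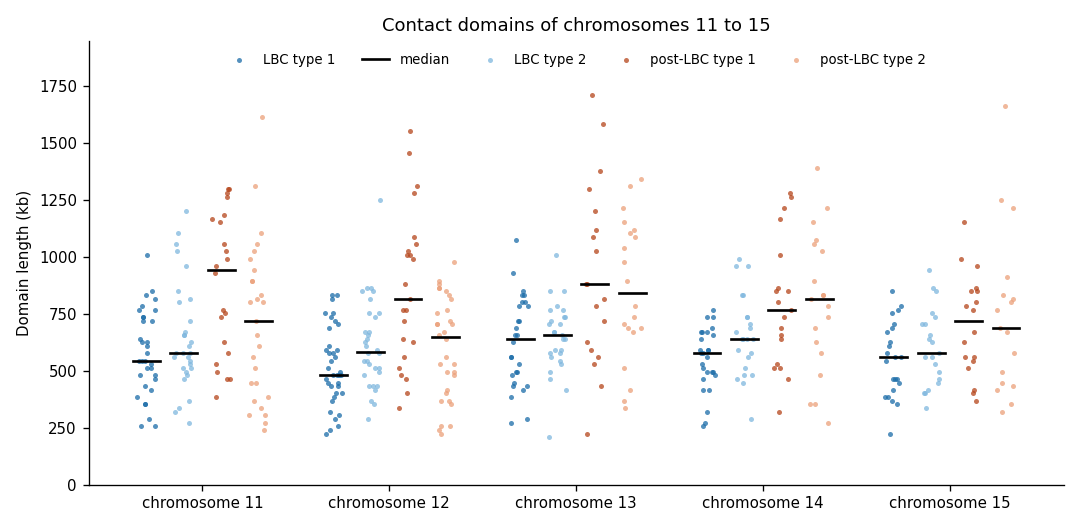
Length in kb of every contact domain of chromosomes 11 to 15 in the 4 maps, 1 point per domain, grouped by chromosome and coloured by map, with the median of each chromosome in each map as a black bar. The medians of the 5 chromosomes lie between 480 and 640 kb in LBC type 1 and between 720 and 944 kb in post-LBC type 1.

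Per 10 Mb covered by domains, there were 17.7 domains in LBC type 1, 15.8 in LBC type 2, 12.0 in post-LBC type 1 and 13.8 in post-LBC type 2. This density leaves out gaps and restates the mean domain length. These domains covered 97.2%, 98.4%, 98.6% and 97.5% of the stretch between the outermost boundaries. The differences in domain number therefore went with nearly equal coverage, and the 5 chromosomes together spanned 85.6 to 85.8 Mb in every map.

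Type 1 showed fewer and longer domains in the post-LBC map on each of the 5 chromosomes. Chromosome 11 had 33 domains in LBC type 1 and 22 in post-LBC type 1, with medians of 544 and 944 kb. Chromosome 12 had 37 and 23, with medians of 480 and 816 kb. Chromosome 13 had 28 and 19, with medians of 640 and 880 kb. The 2 shortest of the 5 chromosomes showed the smaller differences in number and median. On chromosome 14 the counts were 27 and 19 and the medians 576 and 768 kb. On chromosome 15 they were 23 and 18, and 560 and 720 kb. The ratio of the medians, post-LBC over LBC, was thus 1.74, 1.7, 1.38, 1.33 and 1.29 from chromosome 11 to 15, an order that followed the chromosome numbers. Over the 5 chromosomes together it was 1.43, beside 1.46 over all chromosomes, 1.67 on chromosomes 6 to 10 and 1.34 on the smaller microchromosomes. The number of domains was 31.8% lower, beside 26.8% lower over all chromosomes. In these lists the direction rests on the automatic LBC type 1 list. The list that the authors refined by hand has 85 domains. With it in place of the automatic one, the ratio of medians was 0.833 and that of domain numbers 1.19. No refined post-LBC list was available, so these ratios also set a refined list against an automatic one. The paper itself reports fewer boundaries and longer domains after the lampbrush stage, and lower insulation at domain borders. It describes fusion of neighbouring domains from visual inspection and from contacts between neighbouring domains.

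In type 2 the stages differed less. Chromosome 11 had 30 domains in LBC type 2 and 27 in post-LBC type 2, chromosome 12 had 32 in both, and chromosomes 13, 14 and 15 had 27 and 20, 23 and 19, and 21 and 17. The medians were 576 and 720 kb on chromosome 11, 584 and 648 kb on chromosome 12, 656 and 840 kb on chromosome 13, 640 and 816 kb on chromosome 14, and 576 and 688 kb on chromosome 15. All 5 medians were higher in the post-LBC map, while the mean length on chromosome 12 was not, with 615 kb at the LBC stage and 602 kb after it. Over the 5 chromosomes the ratio of medians was 1.13, equal to the 1.13 of all chromosomes, and the number of domains was 13.5% lower.

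The distribution of lengths differed at both ends. Domains under 500 kb made up 61 of 148 in LBC type 1 (41.2%), 32 of 133 in LBC type 2 (24.1%), 15 of 101 in post-LBC type 1 (14.9%) and 34 of 115 in post-LBC type 2 (29.6%). Over all chromosomes these shares were 35.6%, 29.3%, 14.5% and 28.3%. Short domains were thus rarer in post-LBC than in LBC for type 1 and slightly more common for type 2, here but not over all chromosomes. Domains of 1 Mb or more numbered 2 in LBC type 1 (1.35%), 6 in LBC type 2 (4.51%), 32 in post-LBC type 1 (31.7%) and 22 in post-LBC type 2 (19.1%). Over all chromosomes the shares were 10.1%, 4.80%, 35.95% and 19.5%, and for LBC type 1 chromosomes 6 to 10 gave 3.49% and the smaller microchromosomes 1.92%. Megabase domains of LBC type 1 were thus a smaller share than in the whole list on chromosomes 11 to 15 and on both neighbouring size classes.

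The extremes give the range of single domains. The longest of LBC type 1 was 1072 kb, from 7696001 to 8768000 of chromosome 13, and its shortest were 224 kb, from 9040001 to 9264000 of chromosome 12 and from 3360001 to 3584000 of chromosome 15. In LBC type 2 the longest was 1248 kb, from 12528001 to 13776000 of chromosome 12, and the shortest 208 kb, from 2288001 to 2496000 of chromosome 13. The longest domain of any map was in post-LBC type 1, 1712 kb from 5744001 to 7456000 of chromosome 13. Its shortest was 224 kb, from 2656001 to 2880000 of the same chromosome. In post-LBC type 2 the longest was 1664 kb, from 848001 to 2512000 of chromosome 15, and the shortest 224 kb, from 3280001 to 3504000 of chromosome 12.

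Gaps that no domain covered were few and partly shared. There were 14 in LBC type 1, 10 in LBC type 2, 7 in post-LBC type 1 and 12 in post-LBC type 2. Chromosome 15 had none in any map. Over all chromosomes there were 136, 115, 94 and 181 in the same order. Of those on chromosomes 11 to 15, 9, 6, 4 and 8 were shorter than 208 kb, the shortest domain of any automatic list. At 5 places all 4 maps left a gap, and such places were not counted over all chromosomes. On chromosome 11 it ran from 2736001 to 3040000 in both LBC maps and to 3056000 in both post-LBC maps. Chromosome 12 had one from 1568001 to 1776000 in the LBC maps and to 1792000 in the post-LBC maps, and another from 2848001 to 2896000 and to 2928000. On chromosome 14 the gap ended at 14656000 in every map and began at 14320001 in the LBC maps and 14336001 in the post-LBC maps. These 4 gaps differed by at most 32 kb between stages, whereas the one on chromosome 13 was 224, 320, 176 and 384 kb long in LBC type 1, LBC type 2, post-LBC type 1 and post-LBC type 2.

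The first and the last domain of each chromosome were set against the domains between them, 10 end domains in each map. End domains are the outermost of a list and need not lie at the end of the chromosome. The first domain began at 528001 to 608001 on chromosome 12 and at 1408001 or 1600001 on chromosome 13, with no domain before it. The median of the end domains was 472 kb for type 1 and 600 kb for type 2 at the LBC stage, and 784 kb and 808 kb at the post-LBC stage. The interior medians were 560, 624, 800 and 704 kb, over 138, 123, 91 and 105 domains. End domains ranged from 256 to 848 kb, 272 to 960 kb, 320 to 992 kb and 352 to 1216 kb, which lies within the interior range in each map. The ratio of end to interior medians was 0.843, 0.962, 0.980 and 1.15, beside 0.878, 0.921, 0.880 and 1.08 over all chromosomes. Of the 10 ends, 5, 5, 6 and 3 were shorter than the interior median of their own chromosome. End and interior domains thus overlapped fully, and with 10 ends a map the order of the medians rests on few domains: without chromosome 14 the LBC type 1 ratio was 1.04.

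**Figure D2:**
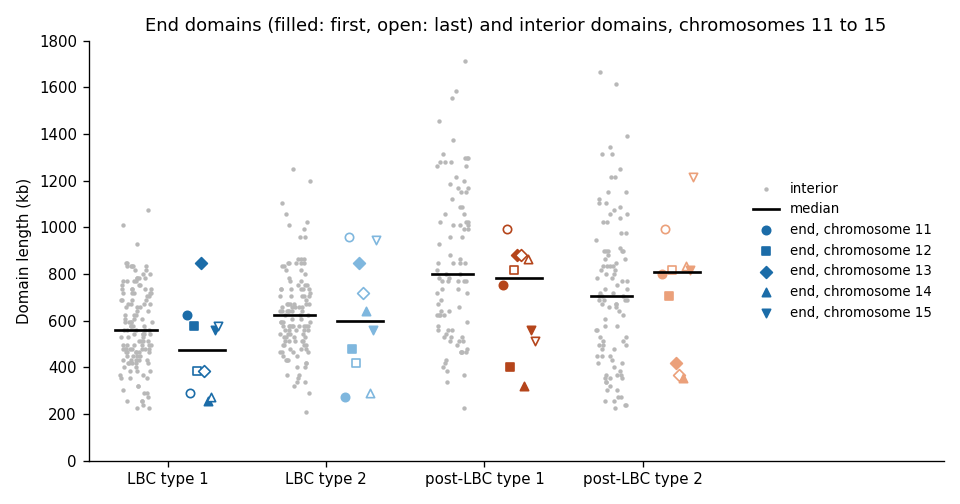
Length in kb of the 10 end domains of chromosomes 11 to 15 in each map, filled for the first domain and open for the last, with a marker shape for each chromosome and a colour for each map, beside the interior domains of the same map as grey points. Black bars are medians. The end domains lie within the spread of the interior domains in all 4 maps.

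In type 1 the last domains differed more between stages than the first ones: their median over the 5 chromosomes was 384 kb in LBC and 864 kb in post-LBC, while that of the first domains was 576 and 560 kb. In type 2 the medians were 720 and 832 kb for the last domains and 560 and 704 kb for the first. Over all chromosomes the type 1 medians were 480 and 792 kb for the last domains and 544 and 720 kb for the first. The type 2 medians there were 536 and 744 kb for the last domains and 576 and 736 kb for the first. Each median on chromosomes 11 to 15 rests on 5 domains. The last domain of chromosome 12 was 384 kb in LBC type 1, 416 kb in LBC type 2 and 816 kb in both post-LBC maps. That of chromosome 14 was 272, 288, 864 and 832 kb in the order LBC type 1, LBC type 2, post-LBC type 1, post-LBC type 2, and in both post-LBC maps it began at 14656001, the edge of the shared gap. On these 2 chromosomes the post-LBC maps differed by at most 32 kb and lay above both LBC maps. The last domain of chromosome 11 was 288 kb in LBC type 1 and 960, 992 and 992 kb in the other maps, so there the LBC type 1 map alone was short. On chromosome 13 the last domain was 384, 720, 880 and 368 kb, and on chromosome 15 it was 576, 944, 512 and 1216 kb. The types disagreed on these: post-LBC was longer in type 1 for chromosome 13 and in type 2 for chromosome 15. In each type 4 of the 5 last domains were longer in post-LBC than in LBC, where 60.7% of the last domains of all chromosomes were longer in each type.

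Among the first domains, that of chromosome 15 ran from 32001 to 592000 in LBC type 1, LBC type 2 and post-LBC type 1 alike, 560 kb, and to 848000 in post-LBC type 2. The first domain of chromosome 14 was 256, 640, 320 and 352 kb, short in every map but LBC type 2. That of chromosome 13 was 848 kb in both LBC maps, 880 kb in post-LBC type 1 and, at 416 kb, shortest in post-LBC type 2. On chromosome 11 it was 624, 272, 752 and 800 kb, and on chromosome 12 it was 576, 480, 400 and 704 kb. The first domain was longer in post-LBC on 3 of the 5 chromosomes in type 1, where all chromosomes gave 57.1%, and on 3 of 5 in type 2, where all chromosomes gave 60.7%.

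A boundary was an end of a domain, and a place where 2 domains met counted as 1. Chromosomes 11 to 15 held 167 boundaries in LBC type 1, 148 in LBC type 2, 113 in post-LBC type 1 and 132 in post-LBC type 2. A boundary was called kept in another map where that map had a boundary within 80 kb, lost where it had none, and gained where the later map had one and the earlier had none. All domains start and end on a grid of 16 kb, so that 80 kb is 5 grid steps. Intervals are 95% Wilson intervals and cover counting error only.

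**Figure D3:**
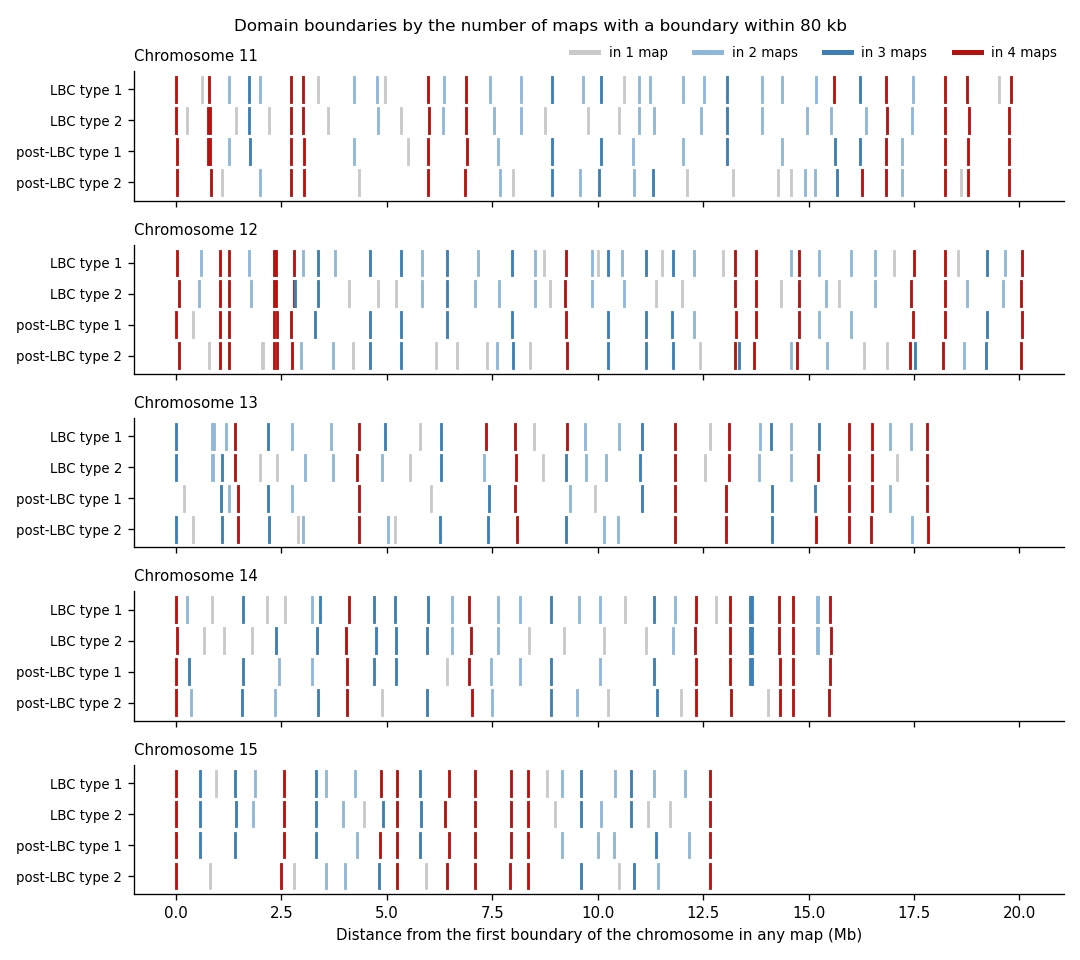
Domain boundaries of chromosomes 11 to 15 in the 4 maps, by distance in Mb from the outermost left boundary in any map, with the colour giving in how many maps a boundary lay within 80 kb. Boundaries found in all 4 maps occur along all 5 chromosomes.

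Of the 167 LBC type 1 boundaries 98 were kept in post-LBC type 1, or 58.7% (51.1 to 65.9), where the share over all chromosomes was 54.9%. The share kept was 54.1% on chromosome 11, 58.1% on chromosome 12, 51.6% on chromosome 13, 59.4% on chromosome 14 and 75% on chromosome 15. Chromosome 15 kept the highest share, 18 of its 24 boundaries, and the intervals of the 5 chromosomes overlapped. Read the other way, 99 of the 113 post-LBC type 1 boundaries lay at an LBC type 1 boundary, 87.6% (80.3 to 92.5), against 75.3% over all chromosomes. The gained boundaries were the remaining 14, or 12.4%, beside 13.2% on chromosomes 6 to 10, 17.7% on the smaller microchromosomes and 28.6% on chromosomes 1 to 5. LBC type 1 held 17.7 domains per 10 Mb covered here, 15.7 over all chromosomes and 14.9 on chromosomes 1 to 5. The part of this density in the shares was not tested. With these lists more LBC boundaries of type 1 were lost than post-LBC boundaries were gained, which mostly restates that the post-LBC list was shorter. This depended on the list. With the LBC list refined by hand set against the automatic post-LBC list, 82.8% of LBC type 1 boundaries were kept. Of the post-LBC type 1 boundaries 28.3% were then gained. With the automatic lists the shares were 49.1% kept and 26.6% gained at a tolerance of 20 kb, and the gained share was 7.08% at 160 kb.

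The intervals of the gained share overlapped between the 5 chromosomes, over which the 14 gained boundaries were spread. Chromosome 13 had 5 of them, among its 21 post-LBC type 1 boundaries, at 1600000, 2480000, 7456000, 11344000 and 16560000, the first of which is the outermost left one. Chromosome 11 had 4, at 5520000, 7648000, 10864000 and 17232000, and chromosome 14 had 3, at 2464000, 6448000 and 7488000. Chromosomes 12 and 15 had 1 each, at 928000 and 10048000. Their nearest LBC type 1 boundary was 96 to 464 kb away, and for 6 of the 14 it was within 160 kb, where the limit was 80 kb. For 6 of the 14, among them 1 that was within 160 kb of an LBC type 1 boundary, no map other than post-LBC type 1 had a boundary within 80 kb: 5520000 on chromosome 11, 928000 on chromosome 12, 1600000, 7456000 and 11344000 on chromosome 13, and 6448000 on chromosome 14.

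Type 2 gave lower shares in both directions. Of the 148 LBC type 2 boundaries 68 were kept in post-LBC type 2, 45.9% (38.1 to 54.0), beside 39.7% over all chromosomes. On chromosomes 11 to 15 the shares kept were 42.4%, 47.2%, 50%, 40.7% and 50%, a narrower spread than in type 1. Of the 132 post-LBC type 2 boundaries 66 lay at an LBC type 2 boundary, 50% (41.6 to 58.4), beside 44.5% over all chromosomes. The other 66 were gained, and at a tolerance of 20 kb the kept and gained shares were 22.3% and 75%. Gain was thus as common as retention in type 2, and the gained share was highest on chromosome 12, 59.0%, and lowest on chromosome 13, 37.5%. Chromosome 12 is also where the number of domains was the same at both stages of type 2.

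**Figure D4:**
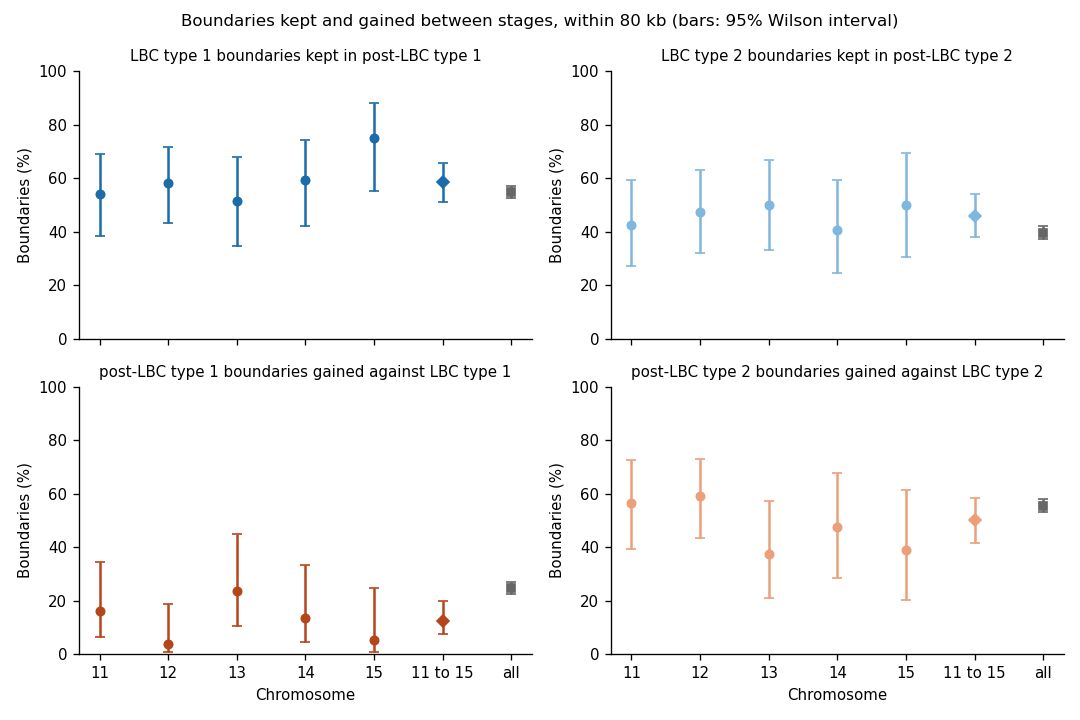
Percentage of LBC boundaries kept in the post-LBC map of the same type and percentage of post-LBC boundaries gained, for each of chromosomes 11 to 15 (circles), the 5 together (diamonds) and all chromosomes (squares), with 95% Wilson intervals as bars. Gained boundaries are 3.85% to 23.8% of the post-LBC boundaries of a chromosome in type 1 and 37.5% to 59.0% in type 2.

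Between the types of 1 stage, 101 of 167 LBC type 1 boundaries were found in LBC type 2, 60.5% (52.9 to 67.6), where all chromosomes gave 53.0%. Conversely 103 of 148 LBC type 2 boundaries were found in LBC type 1, 69.6% (61.8 to 76.4), beside 52.7% over all chromosomes, 46.5% on chromosomes 1 to 5, 60.6% on chromosomes 6 to 10 and 65.2% on the smaller microchromosomes. After the lampbrush stage 74 of 113 type 1 boundaries were found in type 2, 65.5% (56.3 to 73.6; all chromosomes 59.9%), and 75 of 132 type 2 boundaries in type 1, 56.8% (48.3 to 65.0; all chromosomes 49.1%). The 2 LBC maps thus shared a larger part of the LBC type 2 boundaries on these chromosomes than in the whole list. LBC type 1 was also denser here, with 17.7 domains per 10 Mb covered beside 15.7 over all chromosomes, and the part of this was not tested. LBC type 2 also shared more boundaries with LBC type 1 than with the post-LBC map of its own type. Those 2 targets were unlike, with 167 boundaries from 14 nuclei in LBC type 1 and 132 from 1 nucleus in post-LBC type 2.

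The distance between kept boundaries also differed between the pairs. Of the 98 LBC type 1 boundaries kept in post-LBC type 1, 61 were at the identical grid position, 62.2%, and 21 were 16 kb away. All chromosomes gave 54.6% at the identical position. Of the 68 LBC type 2 boundaries kept in post-LBC type 2, 16 were identical, 23.5%, while 17 were 16 kb and 17 were 32 kb away, and all chromosomes gave 28.1% identical. Between the LBC maps 49 of 101 were identical (48.5%) and between the post-LBC maps 29 of 74 (39.2%). Among the boundaries that were kept, most of those of type 1 were thus at the identical position, and most of those of type 2 were not.

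**Figure D5:**
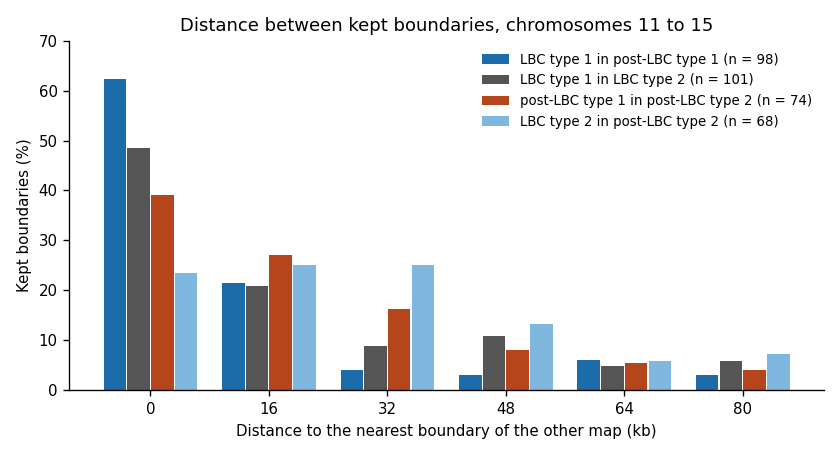
Distance in kb, in steps of 16 kb, from each kept boundary of chromosomes 11 to 15 to the nearest boundary of the other map, as a percentage of the kept boundaries of 4 pairs of maps. A distance of 0 holds 62.2% of the boundaries kept from LBC type 1 to post-LBC type 1 and 23.5% of those kept from LBC type 2 to post-LBC type 2.

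Some boundaries were present in every map. With a boundary of each of the other 3 maps within 80 kb there were 51 in LBC type 1 (30.5%; all chromosomes 23.4%), 49 in LBC type 2 (33.1%; all chromosomes 22.4%), 49 in post-LBC type 1 (43.4%; all chromosomes 32.1%) and 49 in post-LBC type 2 (37.1%; all chromosomes 26.0%). The 51 of LBC type 1 numbered 11, 13, 10, 8 and 9 on chromosomes 11 to 15. At a tolerance of 20 kb the LBC type 1 share was 14.4%. The smaller microchromosomes gave 28.6%, 31.1%, 37.6% and 39.2% in the order LBC type 1, LBC type 2, post-LBC type 1 and post-LBC type 2, and chromosomes 6 to 10 gave 24.5%, 27.8%, 38.5% and 29.7%. Shares above those of the whole list were thus found in all 3 classes, and the differences were not tested. These counts include the outermost boundaries. In LBC type 1 those were 10 of 167 here, 24 of 182 on the smaller microchromosomes and 56 of 1710 over all chromosomes. Without them the LBC type 1 share here was 26.75% (42 of 157), and the other classes were not counted in this way. Boundaries with no partner in any other map were 21 in LBC type 1 (12.6%; all chromosomes 18.7%), 33 in LBC type 2 (22.3%; all chromosomes 32.3%), 6 in post-LBC type 1 (5.31%; all chromosomes 9.73%) and 30 in post-LBC type 2 (22.7%; all chromosomes 28.5%). Each share was also below that of all chromosomes on the smaller microchromosomes, with 14.8%, 26.1%, 9.22% and 14.6%. On chromosomes 11 to 15 both type 2 maps held more such boundaries than the type 1 map of their stage.

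The other LBC type 1 boundaries had partners in some maps only. There were 29 shared with LBC type 2 and neither post-LBC map, 19 shared with post-LBC type 1 alone and 11 with post-LBC type 2 alone. Another 13 were missing from post-LBC type 2 only, 15 from LBC type 2 only and 8 from post-LBC type 1 only. The most frequent partial pattern on chromosomes 11 to 15 was a boundary of both lampbrush maps that neither post-lampbrush map had. The single patterns were not counted over all chromosomes, so this order may be that of the whole lists. LBC type 1 boundaries found in 2 maps were 35.3% (all chromosomes 30.5%), and those found in 3 maps 21.6% (all chromosomes 27.4%).

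At 9 places all 4 maps had a boundary at the identical grid position, 5.39% of the LBC type 1 boundaries, beside 4.85% over all chromosomes. They were 2736000 and 18256000 on chromosome 11, 1568000 and 2848000 on chromosome 12, 17376000 on chromosome 13, 14656000 on chromosome 14, and 32000, 7120000 and 8384000 on chromosome 15. The one at 32000 is the outermost boundary of chromosome 15. Of the 9, 4 were edges of the gaps that all maps share, those on chromosomes 12 and 14 and the one at 2736000 on chromosome 11, so that there the boundary was also the border of uncovered sequence.

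Whole domains with both ends kept in all maps were 9 of the 148 in LBC type 1, 6.08%, beside 2.59% over all chromosomes. Chromosome 15 had 4 of them, chromosome 12 had 3, chromosome 13 had 2, and chromosomes 11 and 14 had none. These 9 were matched to LBC type 1, so the other maps can differ among themselves by more than 80 kb. Counted from the other maps there were 6 in LBC type 2 (4.51%), 8 in post-LBC type 1 (7.92%) and 7 in post-LBC type 2 (6.09%). All chromosomes gave 2.47%, 3.62% and 3.20% in that order. On chromosome 15 the domain from 7120001 to 7968000 was 848 kb in LBC type 1, LBC type 2 and post-LBC type 1, with 832 kb in post-LBC type 2. Its right neighbour, from 7968001 to 8384000, was 416, 416, 416 and 432 kb in the same order. Its left neighbour, from 6496001 to 7120000, was 624, 704, 624 and 672 kb. These 3 consecutive domains form a block of chromosome 15 whose division was the same in every map to within 80 kb. The domain of 848 kb was also the longest in post-LBC type 1 that had no LBC type 1 boundary inside it. The 4th domain of chromosome 15, from 4896001 to 5264000, was 368, 336, 400 and 416 kb.

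On chromosome 13 the domain from 17376001 to 17904000 was 528 kb in LBC type 1, LBC type 2 and post-LBC type 1, with 512 kb in post-LBC type 2. The one from 8768001 to 9456000 was 688, 768, 624 and 704 kb, with ends up to 64 kb from those of LBC type 1. It began at 8704001 in LBC type 2 and at 8832001 in post-LBC type 1. Chromosome 12 held the 432 kb domain from 2896001 to 3328000, which begins at the edge of a shared gap and was 432, 336 and 352 kb in the other maps. Its other members were the domain from 13792001 to 14272000, with 480, 512, 464 and 368 kb, and the one from 18016001 to 18768000, with 752, 816, 768 and 672 kb. Some of these kept domains of chromosomes 13 and 15 lay at identical positions in 3 maps. They all departed in post-LBC type 2, the map of 1 nucleus, and by 16 kb. The rule for kept domains had limited any departure of an end to 80 kb. The first domain of chromosome 15, which was not kept in every map, was also identical in those 3 maps. It ended at 592000 there and at 848000 in post-LBC type 2.

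Between the stages of type 1 alone, 35 of the 101 post-LBC domains were the same domain as in LBC, with both ends within 80 kb, 34.7% beside 33.7% over all chromosomes. Chromosome 15 held 11 of these among its 18 post-LBC type 1 domains, 61.1%. In type 2 they were 13 of 115, 11.3% beside 11.9% over all chromosomes. These shares are near the background of the whole lists.

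A post-LBC domain can also begin and end at LBC boundaries while holding several LBC domains. Both ends of 76 of the 101 post-LBC type 1 domains lay at LBC type 1 boundaries, 75.2% (66.0 to 82.6), where all chromosomes gave 56.2%, chromosomes 6 to 10 75.3% and the smaller microchromosomes 63.2%. By chromosome they were 14 of 22, 21 of 23, 12 of 19, 13 of 19 and 16 of 18. The LBC type 1 list was denser here than over all chromosomes, and the part of this was not tested. Among the 76, 39 held the middle of 1 LBC type 1 domain, 34 held 2 middles, 2 held 3 or more and 1 held none. With the automatic lists, nearly as many of these domains thus spanned several lampbrush domains as spanned 1. Over all chromosomes, of 636 such domains, 392 held 1 middle, 210 held 2 and 32 held 3 or more. On chromosomes 6 to 10 these counts were 69, 46 and 10 of 125. In type 2 both ends lay at LBC boundaries in 22 of 115 domains, 19.1% (13.0 to 27.3), beside 17.3% over all chromosomes.

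With the ends left free, 47 of the 101 post-LBC type 1 domains held the middles of at least 2 LBC type 1 domains, 46.5% (37.1 to 56.2), beside 34.6% over all chromosomes, 47.0% on chromosomes 6 to 10 and 32.5% on the smaller microchromosomes. Counted against the list refined by hand, the share was 2.97%. They were 12 of 22 on chromosome 11, 12 of 23 on chromosome 12, 9 of 19 on chromosome 13, 8 of 19 on chromosome 14 and 6 of 18 on chromosome 15. The reverse was not seen: 0 of 148 LBC type 1 domains held the middles of 2 post-LBC type 1 domains. The interval reached 2.53%, and all chromosomes gave 1.16%. Post-LBC type 1 domains were fewer and longer, so the list sizes alone left little room for this reverse. In type 2, 32 of 115 post-LBC domains held at least 2 LBC middles (27.8%; all chromosomes 25.6%) and 11 of 133 LBC domains held at least 2 post-LBC middles (8.27%; all chromosomes 7.52%). Of these 11, chromosome 12 had 5 and chromosome 11 had 3.

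In type 1 the most middles in 1 post-LBC domain were 3, in 3 domains. On chromosome 12 a domain of 1280 kb from 8496001 to 9776000 held the LBC type 1 boundaries 9040000 and 9264000, and thereby the 224 kb domain that was among the shortest of LBC type 1. Another of 1456 kb from 16544001 to 18000000 held the boundaries 17104000 and 17552000. On chromosome 13 the longest domain, 1712 kb from 5744001 to 7456000, held 6368000 and 7200000. Of these 6 enclosed boundaries, 9040000 and 17104000 were also boundaries of LBC type 2 at the identical position, and 6368000 was within 80 kb of one in both type 2 maps. On chromosomes 11, 14 and 15 no post-LBC type 1 domain held more than 2 middles. In type 2 the domain from 1120001 to 2016000 of chromosome 11, 896 kb, and the one from 848001 to 2512000 of chromosome 15, 1664 kb, held 3 LBC type 2 middles each.

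Kept and lost boundaries were compared by what surrounded them. Leaving out the outermost boundaries, 89 of 157 LBC type 1 boundaries were kept in post-LBC type 1 (56.7%; all chromosomes 53.7%) and 58 of 138 LBC type 2 boundaries in post-LBC type 2 (42.0%; all chromosomes 38.0%). The outermost ones were kept at 9 of 10 ends in type 1 and at 10 of 10 in type 2. Edges of gaps were kept in 16 of 28 cases in type 1 and 14 of 20 in type 2, while boundaries between touching neighbours were kept in 73 of 129 (56.6%) and 44 of 118 (37.3%). Over all chromosomes the shares for outermost boundaries, gap edges and touching neighbours were 91.1%, 64.7% and 51.5% in type 1 and 89.3%, 66.1% and 33.5% in type 2. The higher share at outermost boundaries and, in type 2, at gap edges was thus a feature of the whole lists.

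Within type 1, boundaries up to 2 Mb from the outermost boundary were kept in 24 of 40 cases (60%), those 2 to 5 Mb from it in 33 of 56 (58.9%) and those farther in 32 of 61 (52.5%), beside 55.6%, 57.6% and 52.7% over all chromosomes. In type 2 they were 40.5%, 52.1% and 34.0%, beside 37.4%, 41.2% and 37.5%. Within each type the intervals of the 3 shares overlapped. Where the shorter of the 2 domains adjacent to a type 1 boundary was under 400 kb, 18 of 43 boundaries were kept (41.9%), against 54 of 85 (63.5%) at 400 to under 600 kb and 17 of 29 (58.6%) above. All chromosomes gave 47.1%, 54.6% and 59.5%. In type 2 the shares kept were 35.3%, 47.6% and 32.4% by the same lengths, beside 38.95%, 37.2% and 38.7% over all chromosomes. Boundaries beside a domain under 400 kb thus had the lowest share kept in type 1 and not in type 2. By these lengths too the intervals of the 3 shares overlapped within each type. The type 2 class under 400 kb held 17 boundaries only.

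The list of LBC type 1 that the authors refined by hand had 85 domains on chromosomes 11 to 15, with a median of 960 kb and the longest at 3100 kb. By chromosome they were 20, 19, 16, 15 and 15. Of the 89 inner LBC type 1 boundaries kept in post-LBC type 1, 70 had a manual boundary within 80 kb, 78.7% (69.0 to 85.9; all chromosomes of the manual list 72.6%). Of the 68 lost, 13 had one, 19.1% (11.5 to 30.01; all chromosomes of the manual list 19.2%). The manual list was made from the automatic one and from the same map, so it is not an independent measure of LBC type 1. Against LBC type 2, which comes from other nuclei, the gap was narrower: 55 of the 89 kept (61.8%) and 36 of the 68 lost (52.9%) had a boundary there, beside 57.2% and 43.7% on the other chromosomes. In type 2, 47 of the 58 kept boundaries (81.0%, 69.2 to 89.1) and 46 of the 80 lost ones (57.5%, 46.6 to 67.7) had a boundary in LBC type 1, beside 66.7% and 39.5% on the other chromosomes.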

How the data were processed

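The authors digested nuclei with DpnII, trimmed reads with cutadapt, used the chicken assembly ASM2420605v2, pooled the nuclei of a group and called domains with lavaburst, which maximises a score with a parameter gamma that sets domain size. Gamma for the pooled maps is not given in the sources used here, and for single oocytes it was set by a preferred mean size, so domain number and length depend on that choice. All domains lie on a 16 kb grid, and the shortest is 208 kb.

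The deposited values are domain starts and ends in base pairs. Starts are printed from 1 and boundaries as in the files. Counts, medians and Wilson intervals came from Python 3.11.15, numpy 2.4.6 and scipy 1.17.1, with code tested on simulated lists. With 1 list a group no test was run. Boundaries of 1 chromosome are not independent, which the intervals leave out.

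Named domains were the longest and shortest of each map, the first and last of each chromosome, those kept in all 4 maps and those holding most LBC type 1 middles. Members, lists and rules were chosen with earlier results of these data known. Alternatives were the tolerance, 1 border per gap, the manual list, N50, 2 domains per end and leaving out each chromosome. Genes and sequence at the boundaries were not analysed here.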

Additional observations from a re-analysis of the deposited data

Results flagged for a closer look

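The stages differed in opposite directions in type 1 and type 2 for several values, none of which was tested because each group is 1 map. The share of domains under 500 kb, post-LBC minus LBC in percentage points, was -15.2 in type 1 and 10.0 in type 2 on chromosome 11, -36.7 and 9.38 on chromosome 12, -25.2 and 0.185 on chromosome 13, and -26.8 and 1.96 on chromosome 15. Over chromosomes 11 to 15 it was -26.4 and 5.51. The mean domain length on chromosome 12, post-LBC minus LBC, was 339.1 kb for type 1 but -13 kb for type 2. The median of the end domains minus that of the interior domains was -88, -24 and -16 kb in LBC type 1, LBC type 2 and post-LBC type 1, and 104 kb in the post-LBC type 2 map.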

How the results depend on the processing

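Over 14 results and 131 values under alternatives, 104 stayed within the counting interval or, for ratios, the spread over the 5 chromosomes, 19 moved beyond it and 8 fell on the other side of 1. Leaving out 1 chromosome, which keeps most of the domains, gave 64 of the 104, 1 of the 19 and 5 of the 8. At 20 kb the share of LBC type 1 boundaries kept in post-LBC type 1 was 49.1% and the gained share 26.6%, the share of LBC type 2 boundaries kept was 22.3% and the gained share 75%, and 14.4% of LBC type 1 boundaries were in all 4 maps. At 40 kb the type 1 gained share was 23.0%, LBC type 2 kept 33.8%, post-LBC type 2 gained 62.1% and all 4 maps 19.2%. At 160 kb type 1 gained 7.08%, LBC type 2 kept 55.4% and post-LBC type 2 gained 36.4%. With 1 border at the middle of each gap LBC type 2 kept 37.5% and 23.8% were in all 4 maps. With the manual list in place of LBC type 1, 82.8% of boundaries were kept and 28.3% of post-LBC type 1 boundaries were gained. Of the post-LBC type 1 domains 2.97% then held at least 2 middles. The ratio of medians was 0.833 and the ratio of domain numbers 1.19. Automatic post-LBC domains were thus shorter and more numerous than the refined LBC ones, and no refined post-LBC list was available. By N50 the type 2 length ratio was 1.27. With 2 domains per end the post-LBC type 2 end ratio was 0.956. Leaving out 1 chromosome gave 1.10 to 1.23 for the type 2 median ratio, with 1.23 without chromosome 12, and end to interior ratios of 0.686 to 1.04 in LBC type 1, 0.855 to 1.09 in LBC type 2, 0.828 to 1.03 in post-LBC type 1 and 1.05 to 1.21 in post-LBC type 2. They crossed 1 without chromosome 14 in LBC type 1, without 12 or 14 in LBC type 2, and without 12 or 15 in post-LBC type 1. Without boundaries at gaps found in all 4 maps, an alternative chosen after seeing the data, the kept and gained shares were 56.1% and 12.7% in type 1 and 42.0% and 54.1% in type 2. The causes were not tested. No paired analysis was possible because each group is 1 pooled list. Depth is not in the lists and was not tested.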
